A study of Mus musculus with 22 samples.

Results

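The W330R cells were compared on day 6 and day 4 of adipocyte differentiation, in 4 of the 22 libraries of the series, which were chosen by genotype and day (2 libraries on day 4 and 2 on day 6) and matched by replicate number. The cells are C3H 10T1/2, an established mouse mesenchymal stem cell line that can be driven to become adipocytes, fibroblasts, bone or cartilage cells, and they carry DNMT3A with the W330R substitution. All groups received the same treatment. Induction lasted 2 days, with insulin (5 μg/mL), the glucocorticoid dexamethasone (1 μM), the glitazone troglitazone (5 μM) and isobutylmethylxanthine (0.5 mM) in serum-containing medium, and insulin was the one additive kept afterwards, so that day 4 and day 6 both lie after the inducing drugs were withdrawn. WT cells and cells with the double substitution W330R-R181E, sampled at the same days, served for comparison, and the column names of the latter say R181A where the sample labels say R181E. The labels do not state how DNMT3A was introduced, whether a line is a clone or a pool, or whether replicates are separate cultures, and p-values then measure only the spread between these libraries.

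DNMT3A is a de novo DNA methyltransferase, and W330 lies in its PWWP domain, the module that reads methylated histone H3. During adipogenesis, dexamethasone activates the glucocorticoid receptor, isobutylmethylxanthine raises cyclic AMP, and the glitazone activates PPARγ, the nuclear receptor that drives the adipocyte program. Maturing adipocytes turn on genes of lipid storage and secrete adiponectin and adipsin, while stromal cells that stay undifferentiated produce collagens and other matrix proteins. RNA from the whole culture was sequenced, so that fewer cells of a type and less RNA per cell cannot be told apart.

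The W330R libraries held 14224351 and 25352281 counted reads on day 4 (replicates 1 and 2), and 47453908 and 22283966 on day 6, against 8859501 to 47453908 over the series. Levels below are CPM, that is counts scaled to a common library total, given for replicate 1 and then replicate 2. Replicates of a day differed by more than sampling noise, for example in interferon genes: Ifit1, an interferon-induced RNA-binding protein, stood at 115.6 and 6.25 CPM on day 4 and at 37.8 and 10.2 CPM on day 6. Replicate 2 held more C3, the central complement protein, at 487.6 and 2222 CPM on day 4 and 404.8 and 4030 CPM on day 6. Dnmt3a reached 88.0 and 137.4 CPM on day 4 and 120.8 and 140.9 CPM on day 6, and these reads cannot be told apart as coming from the cell's own gene or from an added copy. The 6 adipocyte markers summed to 1832 and 2288 CPM on day 4 and to 1431 and 1584 CPM on day 6, with Fabp4 the largest part and with Adipoq and Cfd going the other way. The 5 mesenchymal markers summed to 3134 and 2197 CPM and then to 6069 and 4402 CPM, mostly from Col1a1 and Col3a1, whereas Pdgfra overlapped between days at 556.6 and 589.3 CPM and then 425.2 and 625.9 CPM. Some lineage markers other than those of fat were also present. The 10 chondrocyte genes summed to between 797.8 and 987 CPM, led by Sox9 and Col2a1, whereas Acan reached at most 0.04141 CPM. Sox9 is also in the preadipocyte list used below. The 11 osteoblast genes summed to between 131.3 and 181.6 CPM, led by Runx2 and Spp1. Of these 11, Sp7, Bglap, Bglap2, Ibsp and Sost each stayed at or below 0.3844 CPM. The 10 skeletal muscle genes summed to at most 1.25 CPM, with Myod1, Myog, Myf5, Myf6 and Ckm at 0 in all 4 libraries, and 10 macrophage genes to at most 5.51 CPM, with Cd163 and Tyrobp at 0. The 8 endothelial genes summed to 7.95 and 7.22 CPM on day 4 and to 15.1 and 16.3 CPM on day 6 (Cldn5 at 0), nearly all of the gain lying in Tek, at 4.68 and 5.36 CPM and then 12.4 and 14.4 CPM, and the 8 epithelial genes to at most 2.98 CPM (Epcam at 0).

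Between day 4 and day 6, the W330R cells lost transcripts of glucocorticoid-responsive genes, of a mitochondrial folate enzyme and of a TEAD transcription factor, and 1 gene gained. Of 14423 genes tested, 10 (0.0693%) passed an adjusted p under 0.05 in edgeR's quasi-likelihood test with the replicate number as a block, 9 of them lower on day 6 (0.0624%) and 1 higher (0.00693%). The adjusted p values lay between 0.0433 and 0.0461, close to the threshold. In all, 1165 genes (8.08%) had an unadjusted p under 0.05. The calls depended on single libraries, since 0 genes passed without replicate 1 or replicate 2 of day 6 or without replicate 1 of day 4, and 12 passed without replicate 2 of day 4, 6 of them among the 10. Without the block, 0 genes passed in edgeR and 713 had an unadjusted p under 0.05, the smallest adjusted p being 0.186, whereas a block within each genotype called 91 (0.631%), DESeq2 called 170 (1.28%) and a fit of the 4 W330R libraries alone called 355 (2.6%, 1.22% higher and 1.38% lower), and all 10 genes were among the calls of each of the latter 3 fits. In all 10 genes the libraries of the days did not overlap, a separation that 22% of all genes tested showed upward and 23.7% downward. The counts of list members without overlap given below are to be read against these shares.

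**Figure D1:**
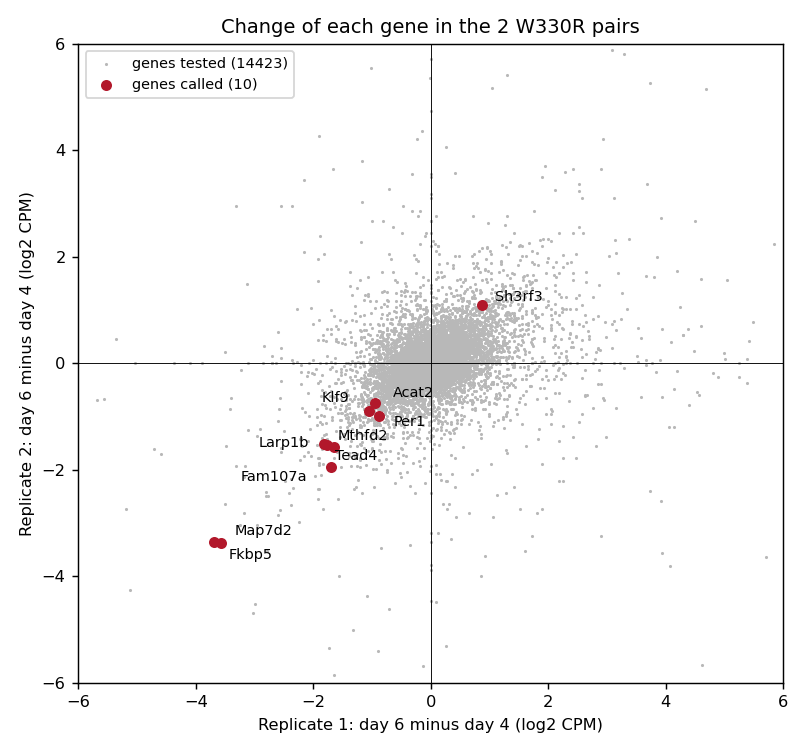
Each point is a gene, with its change from day 4 to day 6 in replicate 1 on the x axis and in replicate 2 on the y axis, as a log2 ratio of CPM. The 10 called genes (red) lie close to equal change in both pairs, with Map7d2 and Fkbp5 farthest down and Sh3rf3 the 1 above 0, and 11 genes lie outside the axes.

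Fkbp5, a co-chaperone that binds the glucocorticoid receptor complex and is one of its best-known targets, showed the steepest fall of the 10 called genes. It had 783.9 and 837.3 CPM on day 2, 454.5 and 387.6 CPM on day 4, and 35.2 and 37.6 CPM on day 6. Both day 6 libraries thus lay far below every earlier one. The fall from day 4 was 11.9-fold, a log2 fold change of -3.58 ± 0.54 (SE, n = 2 per day; edgeR adjusted p = 0.0461).

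Map7d2, which encodes a microtubule-associated protein, fell to a like extent. Its level was 149.2 and 102.8 CPM on day 4 and 12.4 and 9.90 CPM on day 6, a log2 fold change of -3.50 ± 0.49 (SE; edgeR adjusted p = 0.0433). Fam107a, an actin-associated stress-response gene, was the most abundant of the 10 before the fall. It went from 653.6 and 581.7 CPM to 200.7 and 151.0 CPM, with a log2 fold change of -1.80 ± 0.26 (SE; edgeR adjusted p = 0.0433).

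Per1, a clock gene, and Klf9, a Krüppel-like transcription factor, are both induced by glucocorticoids in many cell types. Per1 was at 136.7 and 147.3 CPM on day 4 and at 74.5 and 74.7 CPM on day 6, a log2 fold change of -0.93 ± 0.14 (SE; edgeR adjusted p = 0.0461). Klf9 was at 62.1 and 61.6 CPM on day 4 and at 29.9 and 33.1 CPM on day 6, a log2 fold change of -0.98 ± 0.14 (SE; edgeR adjusted p = 0.0433). Their falls were about 1.90-fold and 1.97-fold. On day 2 Per1 had stood lower than on day 4, at 103.5 and 107.9 CPM, unlike Fkbp5. Klf9 overlapped between days 2 and 4, with 58.0 and 71.2 CPM on day 2.

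Mthfd2, the mitochondrial enzyme of one-carbon folate metabolism, went from 93.9 and 105.7 CPM to 27.5 and 36.3 CPM, a log2 fold change of -1.66 ± 0.24 (SE; edgeR adjusted p = 0.0433). Tead4, a DNA-binding partner of the coactivators YAP and TAZ, went from 42.0 and 39.5 CPM to 11.8 and 13.8 CPM, a 3.21-fold fall. Larp1b, a La-related RNA-binding protein, fell 3.07-fold, from 17.04 and 17.61 CPM to 5.40 and 5.84 CPM. All 3 had already been higher on day 2, by library, than on day 4: Mthfd2 was at 244.7 and 195.4 CPM, Tead4 at 91.4 and 90.9 CPM and Larp1b at 47.2 and 59.8 CPM.

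Acat2, the cytosolic acetoacetyl-CoA thiolase at the entry of the mevalonate pathway, fell 1.80-fold, from 172.7 and 163.5 CPM to 89.3 and 97.8 CPM (log2 fold change -0.85 ± 0.12, SE; edgeR adjusted p = 0.0433). It had differed less between day 2, at 173.6 and 189.4 CPM, and day 4. Sh3rf3, a RING-finger scaffold protein with SH3 domains, rose 1.99-fold, from 17.1 and 18.7 CPM to 31.5 and 40.1 CPM (edgeR adjusted p = 0.0433). It was the single gene called higher. None of the 10 genes shares exon bases with another gene in the GENCODE vM21 annotation.

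**Figure D2:**
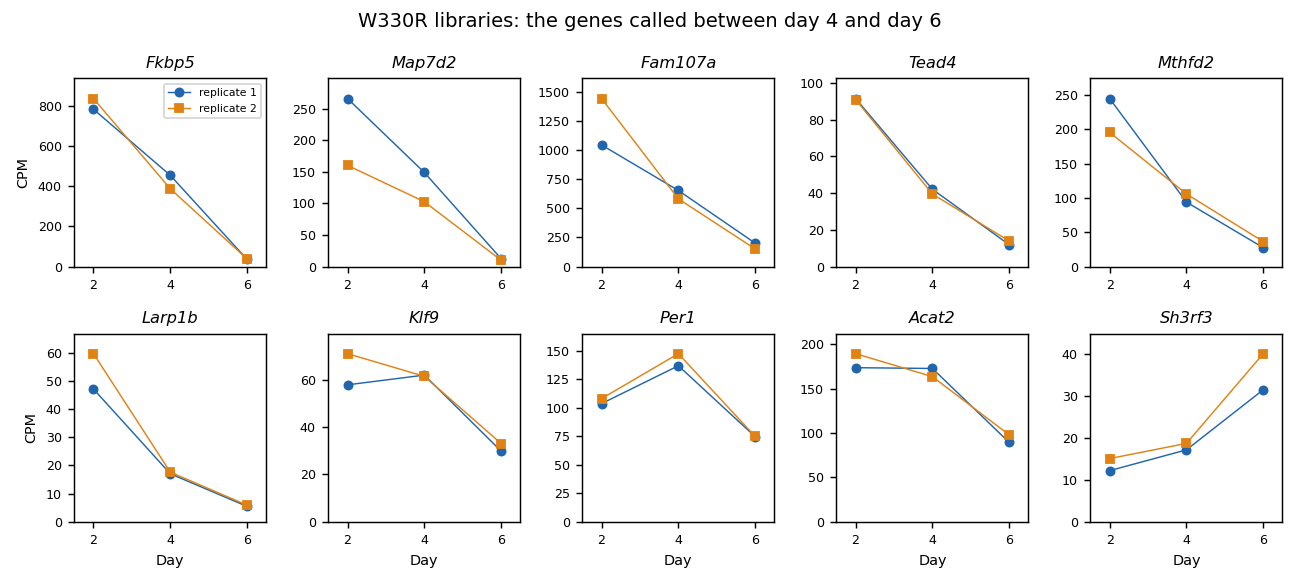
CPM of the 10 called genes in the W330R libraries of days 2, 4 and 6, 1 panel a gene with its own axis from 0. Lines join libraries of the same replicate number. In each panel both day 6 points lie on 1 side of both day 4 points.

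The list of 14 glucocorticoid-induced genes held 13 that were tested, and 3 of them, Fkbp5, Klf9 and Per1, were called lower and 0 higher. In 12 of the 13 both day 6 libraries lay below both day 4 libraries, and in the remaining one, Dusp1, both lay above. The median log2 fold change of the list was -1.23, against -0.0016 over all genes tested. With 1 W330R library of day 4 or day 6 left out, it ran from -1.92 (without replicate 1 of day 6) to -0.87. From day 2 to day 4, 7 of the 13 had both day 4 libraries below both day 2 libraries. Cdkn1c was not tested. Pdk4, a kinase that inhibits pyruvate dehydrogenase, was next to the threshold, at 191.4 and 152.4 CPM on day 4 and 66.5 and 39.6 CPM on day 6 (edgeR adjusted p = 0.0548).

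Zbtb16, a zinc-finger repressor, Sgk1, a serum- and glucocorticoid-regulated kinase, and Tsc22d3, the leucine zipper protein GILZ, did not pass. Zbtb16 had 6.599 and 11.3 CPM on day 4 and 1.19 and 2.44 CPM on day 6. Sgk1 had 142.5 and 132.9 CPM and then 38.0 and 38.7 CPM. Tsc22d3 had 116.7 and 78.1 CPM and then 30.2 and 26.9 CPM. These 3, with log2 fold changes of -2.34, -1.85 and -1.80, were larger in size than those of Klf9 and Per1, but with wider errors (SE 0.47, 0.42 and 0.42).

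Smaller or less even differences were seen in the metal-binding Mt1, at 169.8 and 240.5 CPM and then 107.0 and 151.0 CPM, and in Mt2, at 69.8 and 106.6 CPM and then 34.4 and 68.1 CPM. In the annotation 73.5% of the exon bases of Mt2 are shared with Gm45774 on the other strand, and reads of these genes may not have been told apart. Errfi1, a feedback inhibitor of the EGF receptor, had 144.0 and 141.3 CPM on day 4 and 68.8 and 68.6 CPM on day 6. Dusp1, a MAP kinase phosphatase that is induced by many stimuli, went the other way, at 37.6 and 34.7 CPM and then 62.1 and 66.3 CPM (edgeR adjusted p = 0.64). In the fit of the 4 W330R libraries alone, which has 1 residual degree of freedom, 12 members were called lower and Dusp1 higher.

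Promoter sequences from RefSeq (GRCm38.p6, 250 bases before to 50 after an annotated start) were at hand for 18 of the genes that were called or on this list. The core of the glucocorticoid response element, spelled GNACA, then 3 bases of any kind, then TGTNC, was searched on both strands, and the motif was chosen after the values were seen. These letters occur in a promoter window of 4 of the 18 genes (22.2%) against 0.537% of all 27025 genes with a promoter, and in 5 of 30 windows (16.7%) against 0.475% of 32851. A shorter motif of the glucocorticoid receptor, TGTTCT, lay near the background. It was in 1 of 9 called genes with a promoter (11.1%) and 3 of 12 on the list (25%), against 21.3% of all. By window it was in 7 of 30 (23.3%) against 19%. Such a match is a description of the letters, not a site. The stretches below show the response element in capitals within its flanks, as the strand of the gene reads. They were chosen because they are the matches of that element in these genes. They come from chr14:8309855-8309927 (minus strand), chrX:159459105-159459174 (plus), chr10:21993672-21993744 (plus) and chr8:94178965-94179037 (plus).
Fam107a: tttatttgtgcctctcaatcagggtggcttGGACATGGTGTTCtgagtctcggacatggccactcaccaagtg
Map7d2: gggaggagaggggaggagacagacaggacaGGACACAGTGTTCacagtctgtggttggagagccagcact
Sgk1: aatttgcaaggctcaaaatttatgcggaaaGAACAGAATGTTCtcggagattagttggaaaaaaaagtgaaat
Mt1: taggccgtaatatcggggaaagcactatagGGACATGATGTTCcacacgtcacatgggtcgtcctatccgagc
The match of Fam107a is shared by a pair of overlapping windows. Fam107a, Map7d2 and Sgk1 each have several annotated starts with the match at some of them, and the deposited counts are per gene, so that the start used cannot be told. No window of Fkbp5, Klf9 or Per1 held these letters. Each of these 3 genes holds CCAAT, as do 41.1% of all genes with a promoter.

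The adipocyte program was mixed, and no member of its lists was called apart from Klf9. Adiponectin (Adipoq) and adipsin (Cfd), secreted products of mature adipocytes, stood higher on day 6 in every library. Adipoq had 163.6 and 262.6 CPM on day 4 and 269.3 and 301.2 CPM on day 6 (log2 fold change 0.45 ± 0.30, SE; edgeR adjusted p = 0.74). Cfd had 33.3 and 73.4 CPM and then 119.9 and 120.0 CPM (1.15 ± 0.50, SE; edgeR adjusted p = 0.61). Fabp4, the fatty acid carrier of adipocytes, stood lower, at 999.9 and 1212 CPM and then 570.1 and 764.0 CPM (edgeR adjusted p = 0.71).

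Pparg itself was level, at 33.5 and 41.9 CPM on day 4 and 35.8 and 38.0 CPM on day 6, a log2 fold change of -0.02 ± 0.23 (SE). Cebpa, its partner factor, was at 24.8 and 23.3 CPM and then 23.4 and 18.1 CPM, and the days overlapped. Of 17 adipocyte transcription factors, 6 were lower and 2 higher without overlap, and Klf9 was the 1 called. The lower ones included Rxra, the partner of PPARγ on DNA, at 271.2 and 294.0 CPM and then 182.1 and 204.2 CPM, and Klf5, at 11.9 and 12.2 CPM and then 6.07 and 6.13 CPM. Ebf1, an early B-cell factor also needed in fat, stood at 209.9 and 165.9 CPM and then 251.8 and 251.5 CPM. Lep was not tested.

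Of the lipid droplet proteins, 6 of 13 tested members were lower without overlap and 0 higher, with 0 called, 2 at an unadjusted p under 0.05, 2 called by DESeq2, and a median log2 fold change of -0.20. Cidec, which fuses droplets, had 334.8 and 420.6 CPM on day 4 and 245.2 and 189.7 CPM on day 6. Fitm2, which partitions triglyceride into droplets, had 113.4 and 117.6 CPM and then 56.6 and 56.8 CPM, apart in both pairs (log2 fold change -1.02 ± 0.20, SE; edgeR adjusted p = 0.11). Plin2 was at 377.8 and 513.1 CPM and then 294.8 and 273.5 CPM, whereas Plin1 (37.9 and 51.7 CPM, then 38.9 and 39.3 CPM) and Plin4 (573.5 and 663.2 CPM, then 419.2 and 578.0 CPM) overlapped between days.

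**Figure D3:**
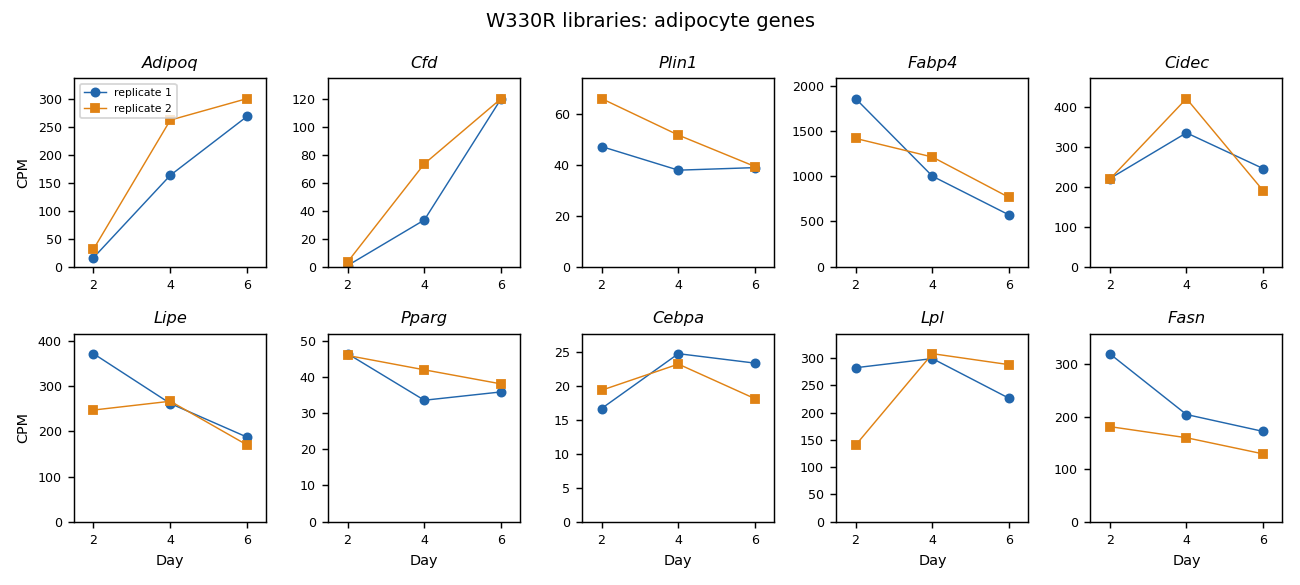
CPM of 10 adipocyte genes in the W330R libraries of days 2, 4 and 6, each panel with its own axis from 0 and lines joining the same replicate number. Adipoq and Cfd climb from day 2 to day 6, Fabp4, Cidec and Lipe stand lower on day 6 than on day 4, and Pparg and Plin1 overlap between those days.

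Among 24 genes of fatty acid and triglyceride synthesis, 10 were lower and 2 higher without overlap (median log2 fold change -0.22, 0 called by edgeR, 7 lower at an unadjusted p under 0.05, 2 called by DESeq2). The lower ones included Acaca, Lpin1, Me1, Pcx and Scd2 and 5 acyltransferases. Of the acyltransferases, Dgat2, the last acyltransferase, had 274.1 and 231.5 CPM and then 149.8 and 81.5 CPM, and Agpat2 had 289.0 and 326.6 CPM and then 169.1 and 168.1 CPM. Agpat9, the glycerol-3-phosphate acyltransferase now called Gpat3, had 74.3 and 60.3 CPM and then 33.3 and 23.7 CPM.

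The enzymes of fatty acid synthesis differed less. Fasn, the fatty acid synthase, was at 203.8 and 159.6 CPM and then 171.6 and 128.8 CPM, and Scd1, the Δ9 desaturase, at 1343 and 1113 CPM and then 1024 and 1126 CPM, both with overlap. Scd2 was at 1851 and 1590 CPM and then 1222 and 1193 CPM, without overlap (edgeR adjusted p = 0.42). Gpd1, which supplies glycerol-3-phosphate, stood at 123.0 and 191.8 CPM and then 212.9 and 265.7 CPM.

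Of 11 lipolysis genes, 8 were lower and 2 higher without overlap, with a median log2 fold change of -0.56, 0 called by edgeR, 4 at an unadjusted p under 0.05 and 2 called by DESeq2. Pnpla2, which starts triglyceride hydrolysis, had 473.4 and 531.1 CPM and then 334.2 and 335.8 CPM, and its coactivator Abhd5 128.3 and 114.4 CPM and then 61.4 and 66.1 CPM. Lipe, hormone-sensitive lipase, had 262.1 and 267.1 CPM and then 187.4 and 170.0 CPM. Adrb3, the β-adrenergic receptor typical of adipocytes, was higher, at 0.705 and 0.782 CPM and then 1.73 and 3.23 CPM (edgeR adjusted p = 0.33).

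In fatty acid uptake and binding, 2 of 13 members were higher and 4 lower without overlap, beside 22% and 23.7% of all genes tested. Acsl1, which activates fatty acids to acyl-CoA, was at 744.5 and 748.7 CPM and then 454.3 and 422.9 CPM (edgeR adjusted p = 0.52). Lpl (299.0 and 308.0 CPM, then 226.0 and 287.8 CPM) was lower, whereas the receptor Cd36 (13.1 and 14.1 CPM, then 15.8 and 18.4 CPM) was higher (edgeR adjusted p = 0.94 and 0.92). The glucose transporter Slc2a4 stood at 8.20 and 9.05 CPM and then 7.30 and 9.36 CPM. Of 14 adipokine genes tested, 3 were higher and 7 lower without overlap. Agt, angiotensinogen, had 243.8 and 202.7 CPM and then 31.4 and 78.8 CPM, and Nampt, the NAD-synthesis enzyme also found in plasma, had 425.3 and 354.8 CPM and then 142.4 and 184.7 CPM. Lcn2, lipocalin 2, had 38.3 and 73.7 CPM and then 6.71 and 30.7 CPM, with unlike replicates on each day.

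In the TCA cycle with pyruvate dehydrogenase, 14 of 22 genes were lower and 0 higher without overlap (median log2 fold change -0.22, 0 called), and in fatty acid oxidation 16 of 25 were lower and 1 higher (median -0.29, 0 called). At an unadjusted p under 0.05 these lists had 3 and 4 lower genes, and DESeq2 called 0 and 1, the latter being Acadm. Without replicate 2 of day 6 the medians were -0.006 for the TCA cycle and -0.075 for oxidation, and without replicate 1 of day 6 they were -0.455 and -0.423. Idh3a, the catalytic subunit of isocitrate dehydrogenase, was at 54.0 and 48.0 CPM and then 18.5 and 27.8 CPM. Dlat, the acetyltransferase core of pyruvate dehydrogenase, was at 157.0 and 166.9 CPM and then 95.4 and 88.2 CPM. Pdha1, its E1 subunit, differed less, at 483.0 and 552.3 CPM and then 378.0 and 376.5 CPM.

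Acadm, the medium-chain acyl-CoA dehydrogenase, was at 374.1 and 415.2 CPM and then 197.3 and 162.1 CPM (log2 fold change -1.11 ± 0.32, SE; edgeR adjusted p = 0.34). Hadha, the trifunctional protein subunit, was at 293.8 and 391.9 CPM and then 290.7 and 320.8 CPM, with overlap. In the respiratory chain 11 of 39 subunits were lower and 0 higher, with a median of -0.07, 0 called and 2 at an unadjusted p under 0.05. This count of lower subunits is near the share over all genes tested, 23.7%. Cycs, cytochrome c, had 65.0 and 58.9 CPM and then 34.6 and 32.9 CPM, and Ndufa4 had 42.3 and 35.2 CPM and then 10.95 and 17.52 CPM. The 2 pairs did not match for this list, with medians of 0.12 in replicate 1 and -0.32 in replicate 2.

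In cholesterol synthesis, 12 of 24 genes were lower and 4 higher without overlap, and Acat2 was the 1 called. Next to it stood Cyp51, the lanosterol demethylase, at 196.4 and 132.6 CPM and then 83.0 and 79.0 CPM, and Idi1, isopentenyl diphosphate isomerase, at 124.8 and 87.5 CPM and then 62.5 and 61.6 CPM. Hmgcs1, which makes HMG-CoA from the product of Acat2, was at 251.9 and 209.2 CPM and then 171.3 and 181.1 CPM. Srebf2, the gene of the pathway's transcription factor, was among the 4 higher ones but differed little, at 213.7 and 204.7 CPM and then 225.9 and 227.7 CPM. Of the 17 genes of this list with a promoter at hand, 16 (94.1%) hold the letters CCAAT there, against 41.1% of all. Other motifs were searched as well. The sterol regulatory element was in 0 of the 17, against 0.0999% of all genes with a promoter. At so low a background, 0 of 17 cannot show whether this list differs from other genes. A direct repeat and both forms of an E2F site were also in 0 of the 17. TGTTCT was in 4 (23.5%), against 21.3% of all.

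Matrix genes stood higher on day 6. Of 30 matrix glycoproteins and proteoglycans, 22 were higher and 2 lower without overlap, with a median log2 fold change of 0.57, 0 called, 11 higher at an unadjusted p under 0.05 and 3 called by DESeq2 (Dcn, Eln and Fbln2). In the fit of the 4 W330R libraries alone 11 were called higher and 0 lower. Fbln2, a fibulin of elastic fibres, had 292.9 and 243.8 CPM and then 746.2 and 571.8 CPM (log2 fold change 1.28 ± 0.24, SE; edgeR adjusted p = 0.085). Fn1, fibronectin, had 2270 and 2118 CPM and then 4025 and 4074 CPM, whereas Bgn, biglycan, overlapped at 3356 and 3727 CPM and then 3587 and 3979 CPM.

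Other members of the list started from low levels. Eln, elastin, was at 8.84 and 16.2 CPM and then 55.6 and 53.6 CPM. Dcn, decorin, was at 2.18 and 3.69 CPM and then 19.9 and 18.8 CPM, and on day 2 at 0.217 and 0.228 CPM. Lum, lumican, was at 2.50 and 3.50 CPM and then 9.68 and 18.1 CPM. None passed the test (edgeR adjusted p = 0.17 for Dcn and 0.27 for Eln).

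Of 18 collagens tested, 12 were higher and 3 lower without overlap (median 0.33, 0 called by edgeR, 5 higher at an unadjusted p under 0.05, 3 called by DESeq2). Col1a1 had 1131 and 628.6 CPM and then 2381 and 1417 CPM, Col1a2 had 3125 and 2345 CPM and then 5119 and 3671 CPM, and Col3a1 had 1197 and 789.9 CPM and then 2862 and 2038 CPM. Together these encode the chains of collagens I and III. The lower ones were Col4a1, at 1461 and 1236 CPM and then 970.6 and 980.6 CPM, Col4a2, at 1012 and 773.2 CPM and then 675.2 and 719.5 CPM, and Col6a3, at 1952 and 1595 CPM and then 919.6 and 1050 CPM. Col6a1, another chain of collagen VI, went the other way from Col6a3, at 1773 and 2080 CPM and then 2468 and 2347 CPM.

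Among matrix proteases and inhibitors 7 of 13 were higher and 1 lower, with 0 called by edgeR, 6 at an unadjusted p under 0.05 and 2 called by DESeq2. Mmp14, a membrane collagenase, had 543.2 and 557.5 CPM and then 768.1 and 840.8 CPM, and its substrate Mmp2 had 410.6 and 398.6 CPM and then 554.1 and 540.6 CPM. In smooth muscle contractile genes 10 of 16 were higher and 0 lower (median 0.51, 0 called by edgeR or DESeq2, 5 at an unadjusted p under 0.05), with Acta2, smooth muscle actin, at 314.6 and 403.7 CPM and then 614.6 and 615.1 CPM. Tpm1, a tropomyosin, was at 503.0 and 538.2 CPM and then 870.1 and 664.5 CPM, and the median of the list was 0.194 without replicate 1 of day 4 and 0.773 without replicate 2 of day 4. Cald1 overlapped at 540.8 and 629.6 CPM and then 626.8 and 653.3 CPM. Col1a1 and Col3a1 are also in the mesenchymal marker sum, which is thus no separate measure of cell composition. Of the markers outside these lists, Pdgfrb and Thy1 were higher in both day 6 libraries and Pdgfra overlapped, and the part of cell composition was not tested.

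**Figure D4:**
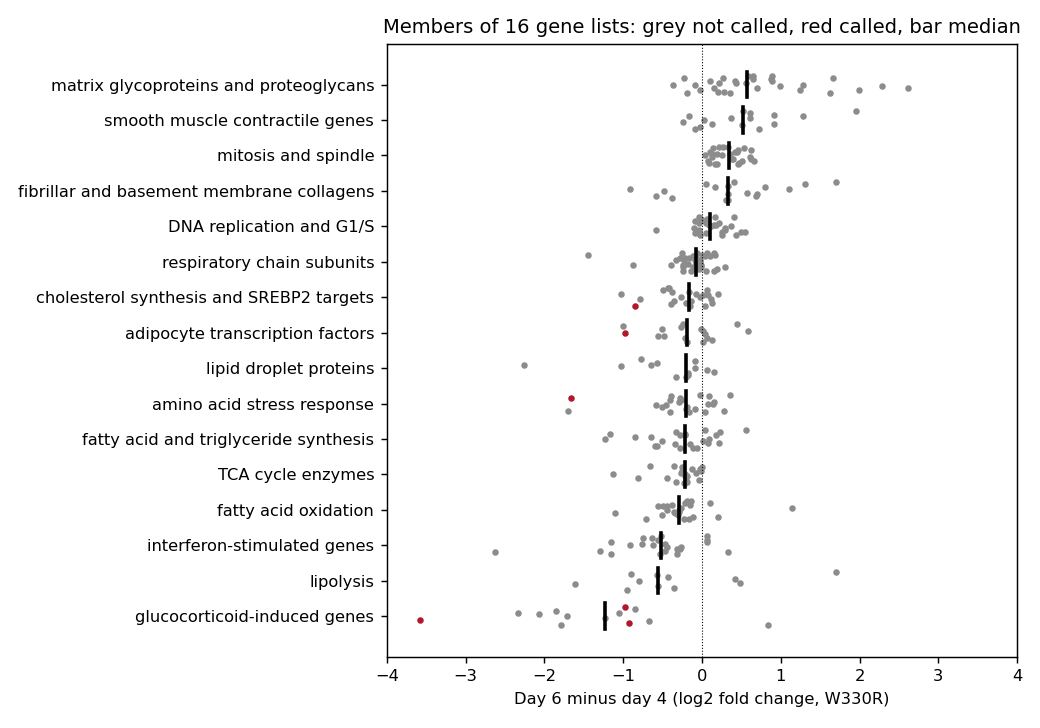
Log2 fold change from day 4 to day 6 in the W330R cells for each tested member of 16 gene lists, with a bar at the median, and red where the gene was called. Glucocorticoid-induced genes lie farthest to the left (median -1.23) and matrix glycoproteins farthest to the right (median 0.57), and 1 gene lies outside the axis.

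Every tested mitosis gene had a positive log2 fold change, the lowest being 0.04, and genes of DNA replication differed less. In mitosis and spindle genes 12 of 28 were higher and 0 lower without overlap, with a median log2 fold change of 0.34 and 0 called, and in DNA replication and G1/S genes 12 of 28 were higher and 2 lower, with a median of 0.10. At an unadjusted p under 0.05 there were 0 and 1, and DESeq2 called 0 in both. In the fit of the 4 W330R libraries alone Mki67 was called higher, as the 1 member of these lists. The mitosis median was 0.15 without replicate 1 of day 4 and 0.528 without replicate 2 of day 4. Mki67, the proliferation marker Ki-67, was at 58.4 and 49.0 CPM on day 4 and 93.3 and 73.9 CPM on day 6. On day 2 it had been at 3.20 and 3.84 CPM. Top2a, which untangles DNA in mitosis, overlapped at 94.0 and 80.1 CPM and then 110.9 and 91.2 CPM. Unlike Mki67, Top2a had been higher on day 2, at 171.3 and 315.8 CPM.

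Interferon-stimulated genes gave no separation by day: 0 of 23 were non-overlapping in either direction, and 0 had an unadjusted p under 0.05 or a DESeq2 call, with a median of -0.98 in replicate 1 and 0.13 in replicate 2. Oasl2 shows the pattern, at 73.9 and 6.11 CPM on day 4 and 22.6 and 6.21 CPM on day 6, where the replicates of a day differed by more than the days. The chemokines differed by library in the other sense. Cxcl1, a neutrophil chemokine, was at 1.22 and 16.4 CPM and then 10.6 and 66.5 CPM, higher on day 6 within each pair, and with a log2 fold change of 2.46 ± 0.38 (SE; edgeR adjusted p = 0.055). The abundant Cxcl12 was at 1685 and 2821 CPM and then 1522 and 2677 CPM.

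In the DNA methylation machinery, 4 of 12 genes were higher and 0 lower without overlap, beside 22% and 23.7% of all genes tested. Of the 12, 0 had an unadjusted p under 0.05 or a DESeq2 call. Dnmt1, the maintenance enzyme, was at 67.4 and 68.9 CPM and then 81.7 and 85.2 CPM. Its cofactor Uhrf1 was at 34.7 and 28.6 CPM and then 42.3 and 44.6 CPM. Dnmt3b was at 6.41 and 5.96 CPM and then 6.32 and 7.33 CPM. The log2 fold changes of Dnmt3a, Dnmt1 and Dnmt3b were 0.26, 0.29 and 0.15 with SEs of 0.16, 0.20 and 0.23. Over the whole list the log2 fold changes ran from -0.138 to 6.93, with a median of 0.16. As 0 of the 12 had an unadjusted p under 0.05, the value of 6.93 is not shown to be a difference between the days.

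Among 23 amino acid stress genes, 7 were lower and 1 higher without overlap, and Mthfd2 was the 1 called, with a list median of -0.21. Mthfd2 is also a target of the stress factor ATF4. In insulin signalling 6 of 15 genes were lower and 0 higher (0 called by edgeR, 2 lower at an unadjusted p under 0.05, 2 called by DESeq2), and in the thermogenic list 3 of 9 were lower and 2 higher, Pdk4 being the nearest to the threshold. Preadipocyte genes (4 higher and 1 lower of 14) and TGF-β and YAP response genes (5 higher and 4 lower of 14) had medians of 0.02 and 0.04. In either list 0 members were called by edgeR, with 3 and 4 at an unadjusted p under 0.05 and 1 each called by DESeq2. For the lists of this paragraph, the shares without overlap over all genes tested were 22% higher and 23.7% lower.

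The same interval was compared between genotypes to ask whether the W330R change differed from that of WT and of the double mutant, which use other libraries. The test of the difference called 0 genes against WT and 0 against the double mutant in edgeR, where 254 and 232 genes had an unadjusted p under 0.05 and the smallest adjusted p was 1 in both, and DESeq2 called 7 and 2. From day 4 to day 6 alone, WT had 90 calls (0.624%) and the double mutant 5 (0.0347%). All 10 genes called in W330R had the same direction in both other genotypes, and 7 of them were called in WT and 0 in the double mutant, where their adjusted p lay between 0.0527 and 0.23.

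Fkbp5 went from 576.4 and 1374 CPM to 38.7 and 189.0 CPM in WT, and from 241.6 and 594.6 CPM to 30.8 and 100.9 CPM in the double mutant. Its log2 fold changes were -3.22 and -2.73, beside -3.58 in W330R. The glucocorticoid list had medians of -1.40 in WT and -1.04 in the double mutant, and 12 of its 13 members were lower in each. For Larp1b, Acat2 and Tead4 the difference between W330R and WT had an unadjusted p of 0.015, 0.0031 and 0.019, and none passed after adjustment. Acat2 was at 179.8 and 230.1 CPM and then 155.4 and 192.1 CPM in WT.

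**Figure D5:**
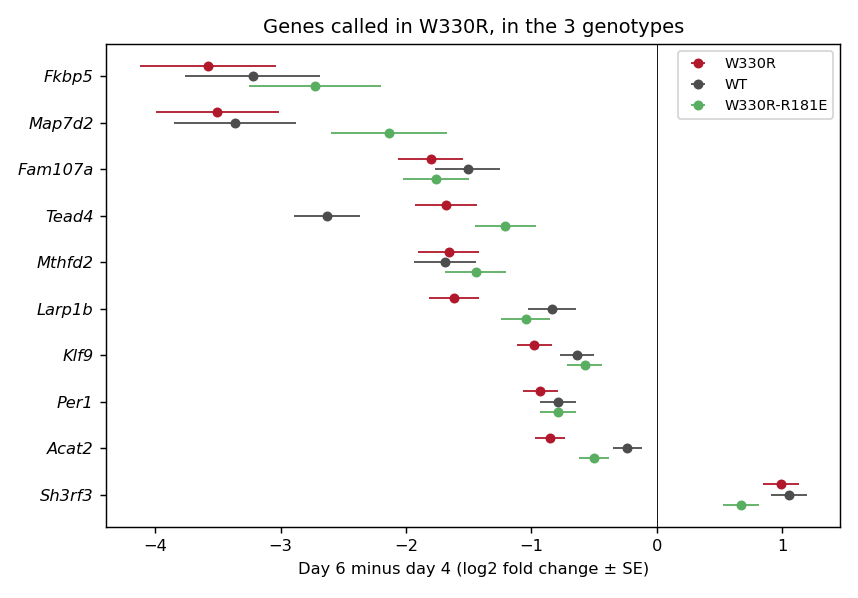
Log2 fold change from day 4 to day 6, with its standard error, of the 10 genes called in W330R cells, in W330R (red), WT (grey) and W330R-R181E (green). Every gene has the same sign in the 3 genotypes. The W330R and WT error bars of Acat2, Larp1b, Tead4 and Klf9 do not meet, which is not a test of a difference. For Klf9 the difference had an unadjusted edgeR p of 0.109, and for none of these genes did it pass after adjustment.

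For some adipocyte genes, chosen after their values were seen, the log2 fold change was lower in W330R than in WT, and for others it was not, without a call on any difference. Adipoq had a log2 fold change of 0.45 in W330R, 1.24 in WT and 0.48 in the double mutant, and Cfd had 1.15, 1.93 and 0.46. Cidec had -0.78 in W330R, 0.22 in WT and -0.98 in the double mutant (unadjusted p of the difference from WT 0.0038). Fasn had -0.28, 0.54 and -0.45, and Dgat2 had -1.16, -0.13 and -0.78. On the other side, Cebpa had -0.19 in W330R and -0.30 in WT, Cd36 had 0.32 and 0.03, and Plin4 had -0.33 and -0.51, and the adipokine list had medians of -0.26 and -0.57. The median of the synthesis list was -0.22 in W330R, 0.21 in WT and -0.26 in the double mutant, and that of mitosis genes was 0.34, 0.93 and 0.78. Matrix glycoproteins had nearly the same median in each, at 0.57, 0.65 and 0.50.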

How the data were processed

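The deposited values are whole-number counts per gene for 22 libraries, not normalized by the authors, made from total RNA (TRIzol, NEBNext Ultra II). Per the labels, the processing notes name kallisto, DESeq2 1.40 and GRCm39, without their roles, so that the counts may be rounded estimates. The strand setting is not given in the sources used here. Some other named genes share exon bases with a gene on the other strand, and their reads may not have been told apart. The share was 24.9% for Adrb3, 23.4% for Ccnd1, 16.1% for Pdha1, 16% for Abhd5, 15.6% for Lipe, 13% for Gpd1 and 12.1% for Hmgcs1.

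Genes with too few reads were dropped by filterByExpr (minimum count 10, total 15), which kept 14423 of 30170. The quasi-likelihood test of edgeR 4.0.16 (R 4.3.3) was fitted to the 18 libraries of days 2, 4 and 6 after TMM scaling, with 1 mean for each of 9 conditions and the replicate number as a block (8 residual degrees of freedom). Calls needed an adjusted p (Benjamini-Hochberg, over all genes tested) below 0.05. CPM use TMM library sizes, and SEs are the log2 fold change over the square root of F. The block was used because the comparison was set up as paired. The labels do not say what the numbers share, and deviations of same-numbered libraries correlated at 0.239 for W330R days 4 and 6 and at -0.023 to 0.529 over 36 pairs of conditions. Library totals ran from 8859501 to 47453908.

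The alternatives were no block, a block within each genotype, DESeq2 1.42.0, RLE size factors, no filter, all 22 libraries, thinning to the smallest total, the 4 W330R libraries alone, and each library left out. The fit was also run on counts simulated from its own model with the same block. That run cannot show whether the block or the scaling suits these data.

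Named by rule were called genes (up to 12 a direction, mean log2 CPM of at least 1, same direction in both pairs), a fixed set of adipocyte and Dnmt genes, and of each list its called members and the 2 most abundant others. Remaining named genes were chosen after their values were seen. The comparison, its members and the lists were chosen with earlier results of these data known. RefSeq promoters are of GRCm38.p6, another build than that of the counts. Some items named by the rule are not reported here.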

Additional observations from a re-analysis of the deposited data

How the results depend on the processing

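The number of called genes was 10 (1 higher, 9 lower). On the pairing, no replicate block gave 0 (0 higher, 0 lower) and a replicate block within each genotype 91 (27 and 64). Scaling by RLE size factors or thinning to the smallest total also gave 0 (0 and 0), where the adjusted p of the 10 lay between 0.0503 and 0.0612. Without a filter on low counts there were 21 (6 and 15), which included the 10 but for Per1, with all 22 libraries 27 (7 and 20), with DESeq2 170 (70 and 100) and with the 4 W330R libraries alone 355 (166 and 189). Leaving out 1 library gave 0 to 12 calls (0 to 3 higher, 0 to 9 lower). The difference from WT had 0 calls in edgeR and 7 (3 and 4) in DESeq2. The difference from the double mutant had 0 in edgeR and 2, both lower, in DESeq2, and 0 to 1 with a library left out (0 to 1 higher, 0 to 1 lower). A block did not change the 0 calls of these differences. The causes were not tested. With a library left out of a day, the lone library was assumed to vary like the other groups.

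The 10 called genes kept their direction in all 12 alternatives, as did 106 of the 124 named genes. The other 18 changed direction in one or more of them. Without a filter Pparg had a log2 fold change of 0.018. With a library left out, the log2 fold change ran from -0.151 to 0.132 for Pparg, -0.604 to 0.165 for Cebpa, -0.345 to 0.008 for Plin1, -0.756 to 0.199 for Lpl, -0.055 to 0.679 for Cd36, -0.527 to 0.199 for Scd1 and -0.279 to 0.166 for Slc2a4. It ran from -0.004 to 0.522 for Dnmt3a, -0.07 to 0.369 for Dnmt3b, -0.018 to 0.8 for Ccnd1, -0.02 to 0.449 for Top2a, -0.191 to 0.425 for Bgn and -0.123 to 0.436 for Cald1. It ran from -0.589 to 0.408 for Cxcl12, -0.302 to 0.914 for C3, -0.203 to 1.614 for Gpd1, -0.726 to 0.086 for Col4a2 and -1.316 to 0.453 for Ifit1. The glucocorticoid median stayed between -1.92 and -0.87 with a library left out, and that of matrix glycoproteins between 0.41 and 0.83, whereas those of interferon genes (-0.94 to 0.22), respiratory chain subunits (-0.35 to 0.17), adipocyte transcription factors (-0.39 to 0.04), insulin signalling (-0.30 to 0.08), thermogenic genes (-0.34 to 0.26), DNA methylation genes (-0.02 to 0.30), fatty acid uptake (-0.06 to 0.01) and TGF-β and YAP response genes (-0.15 to 0.18) crossed 0, as did those of the chondrocyte, endothelial and epithelial markers. With 2 libraries a day, the calls lie near the threshold and a gene that missed it is not shown to be unchanged.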

Other observations

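Outside the gene lists, 59 genes (mean log2 CPM 1 or more) had an adjusted p under 0.05 both in the 4 W330R libraries alone and with a block within each genotype, 22 higher and 37 lower on day 6, and 5 of them were among the 10 called genes. The genes named here were chosen after their values were seen, and none of them passed the main test. Car3, a carbonic anhydrase abundant in mature fat, was at 2.31 and 2.16 CPM on day 4 and at 18.3 and 41.6 CPM on day 6, a log2 fold change of 3.87 ± 0.79 (SE). Clec3b, the secreted protein tetranectin, was at 36.5 and 44.0 CPM and then 113.1 and 120.3 CPM. Apoe, a lipid-carrying apolipoprotein, was at 25.4 and 26.5 CPM and then 52.5 and 57.3 CPM. Nov, a matricellular CCN protein, was at 339.1 and 151.9 CPM and then 750.1 and 332.6 CPM, higher within each pair although the days overlapped.

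On the lower side, Slc25a34, a mitochondrial carrier, was at 51.2 and 44.6 CPM on day 4 and at 9.74 and 6.96 CPM on day 6, a log2 fold change of -2.49 ± 0.43 (SE), beside -0.93 in WT and -1.74 in the double mutant (edgeR adjusted p = 1 for either difference). Its neighbour on chromosome 4, Tmem82, was at 26.7 and 18.3 CPM and then 4.44 and 2.65 CPM. Of the exon bases of Tmem82, 23.7% are shared with AI507597 on the other strand. Ppa1, a pyrophosphatase, was at 419.2 and 383.4 CPM and then 133.3 and 112.1 CPM. Glul, glutamine synthetase, was at 769.9 and 573.4 CPM and then 336.8 and 199.3 CPM. Adipor2, an adiponectin receptor, was at 320.0 and 389.8 CPM and then 177.6 and 190.8 CPM. Rgs2, which limits G-protein signalling, was at 300.4 and 256.8 CPM and then 122.9 and 100.9 CPM. In each of these 6 genes both day 6 libraries lay below both day 4 libraries.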
